A study of Mus musculus with 574 samples.

Results

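Granulocyte/macrophage progenitors (GMPs) collected 14 days after 5-fluorouracil (5-FU) were compared with GMPs collected on day 12, the last 2 time points of a recovery series in mouse bone marrow. Single cells were sorted as lin-/c-Kit+/Sca-1-/CD34+/FcγR+ and read with Smart-seq2, which amplifies whole transcripts without molecular identifiers. All columns named for the 2 days were taken, and cells with 50000 or more gene reads and 1000 or more genes were kept. This kept 85 of 95 cells on day 12 and 47 of 96 on day 14, together 132 of the 500 cells kept and 573 cells read in the whole series. The mice were C57Bl/6 wild type, 6 to 12 weeks old, and received 5-FU once at 150 mg/kg or PBS. Days 12 and 14 are 1 set of cells each. The other sets are day 0, day 10 and a pair of day 8 sets, and the labels do not say whether the day 0 mice had the PBS control, which bones were crushed or flushed, or how many mice gave a set. The day 8 pair is the only repeat, so its spread served as the yardstick.

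GMPs are the bone marrow progenitors of neutrophils and monocytes. They make the enzymes of the primary (azurophil) granules, such as myeloperoxidase and neutrophil elastase, before the cells mature, and the balance of the transcription factors Irf8 and Gfi1 is tied to the choice between the monocyte and the granulocyte path. 5-FU kills dividing cells, after which surviving stem and progenitor cells expand and the myeloid compartment refills.

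The sets differed in ways other than the day. The median of gene reads in kept cells was 158578 on day 12 against 79451 on day 14, so each was thinned at random to 50000 reads. Next to the limit, the shallowest kept cells had 50843 (day 12) and 50175 (day 14) reads, and the deepest ones left out 49783 and 49444. A single locus, Slc34a2, an epithelial phosphate transporter gene, took a median of 16.9% of the reads of kept cells on day 12 and 31.2% on day 14. At least 50% of reads were on it in 5 of 85 and 12 of 47 kept cells. Slc34a2 was left out of totals, which left 3337016 and 1451288 reads for the summed sets. Reads outside genes were 1.09 per read in genes on day 12 and 2.30 on day 14. Xist, the RNA of the inactive X chromosome, was read in 78 of 85 cells on day 12 and 0 of 47 on day 14, and the Y-linked Eif2s3y in 6 of 85 and 25 of 47. Xist was also read in 81 of 92 cells on day 0, against 0 of 90 and 4 of 93 in the day 8 sets and 0 of 93 on day 10. Day therefore cannot be told apart from the sex of the mice, and X and Y genes were left out of the tests. No 2 cells had identical counts (0 pairs).

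**Figure D1:**
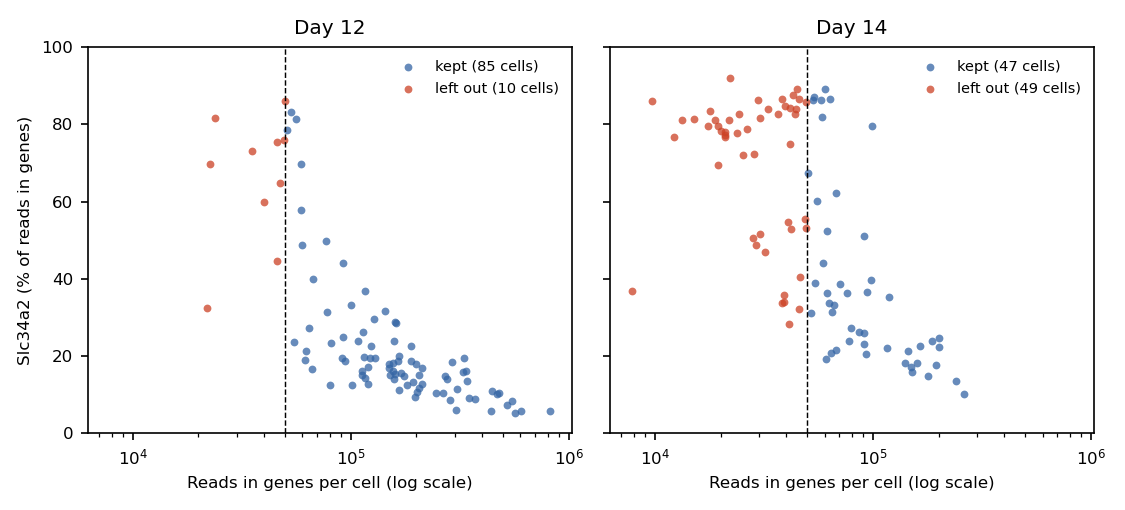
Each point is 1 cell of day 12 (left) or day 14 (right), with its reads in genes on a log axis and the percent of those reads on Slc34a2; the dashed line is the limit of 50000 reads. Of the 49 day 14 cells left out, 40 had at least 50% of reads on Slc34a2, against 12 of the 47 kept.

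No gene passed the test between the 2 days. With edgeR's quasi-likelihood test on all 6 summed sets, 0 of 10847 genes were higher and 0 lower on day 14, a background of 0% in each direction, and the lowest Benjamini-Hochberg adjusted p was 0.483. At an unadjusted p under 0.05 there were 574 genes higher and 508 lower. DESeq2's Wald test on the same sums called 35 genes higher and 2 lower, Tex2 and Apoe, and limma voom called 0 and 0. Under 5 other choices of cells or thinning the same edgeR test called 76 to 426 genes higher and 23 to 170 lower, so the absence of calls depends on these choices. The spread in this test comes from the 2 day 8 sets alone, which left 1 residual degree of freedom, and the other sets were assumed to vary like them. Differences below are therefore given as values, in read counts scaled per 1e6 (CPM) of the summed set or on the log2 scale. The standard error (SE) beside them is the absolute log2 difference divided by the square root of the F statistic of the test. With 3.27 degrees of freedom in total, it cannot be read on a normal scale. Where 6 levels of a gene follow each other, they are those of day 0, the first and second day 8 set, and days 10, 12 and 14, and where 2 do, those of days 12 and 14. Csf3r, S100a9, Cx3cr1, Psap, Prss34, Meis1, Hoxa5, Hoxa7, Msi2, Hlf, Kif2c, Rps28, Pes1, Dctd, Rrm2b, Sesn1, Jun, Fosb, Pmvk, Insig1 and the markers at 0 reads are list members that were picked for the text after their values were seen.

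By size, the 2 days lay farther apart than the day 8 sets did, but the summed sets were unequal. Day 14 held 47 cells and 1451288 reads, against 90 and 93 cells and 3957183 and 3764407 reads in the day 8 sets. On the log2 CPM scale with a prior count of 2, 1308 genes (12.1% of those tested) were at least 2-fold higher on day 14 and 864 (7.97%) at least 2-fold lower. Between the day 8 sets 512 genes (4.72%) were at least 2-fold higher in the second and 234 (2.16%) lower. The difference between days 14 and 12 exceeded the day 8 difference in 64.4% of genes, and the SD of the differences was 0.91 against 0.54. The median over all genes was −0.04 and −0.01. With the first 47 cells of every set, 2221 genes were past 2-fold between the days and 1066 between the day 8 sets. In cells of 50000 to 150000 reads these were 2683 and 2180, from 38 and 36 cells on days 12 and 14. The day 8 sets held 21 and 33 such cells. The part of set size in these counts was not tested.

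Most of the genes past 2-fold had few reads. Among 5903 genes under 32 CPM, 1043 were past 2-fold upward and 749 downward, against 431 and 213 between the day 8 sets. From 32 CPM to 4 times that level the counts were 191 and 114 of 3763 genes, against 59 and 16. At still higher levels they were 74 upward and 1 downward of 1181, against 22 and 5, so there nearly all of the large differences pointed to day 14. The 1 downward gene was S100a8, described with the late neutrophil genes.

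**Figure D2:**
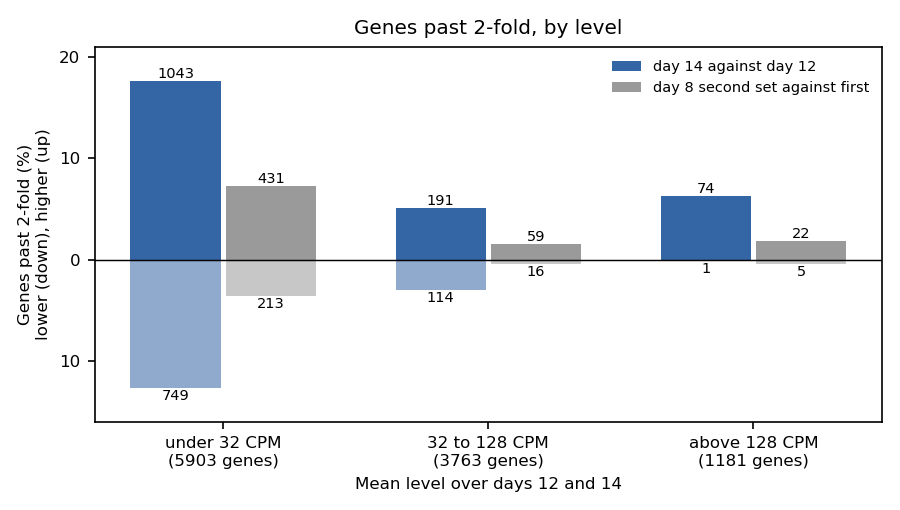
Bars give the percent of tested genes at least 2-fold higher (up) or lower (down, paler) on day 14 than on day 12 (blue) and in the second day 8 set than in the first (grey), by mean level over days 12 and 14, with the number of genes on each bar. The day 14 bars exceed the day 8 bars in both directions at every level except downward in the highest group, where they hold 1 and 5 genes.

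Genes of the primary granules stood at similar levels on both days. None of the 16 tested members passed the test or was past 2-fold. Of these, 10 lay above 0 and 6 below, with a median log2 difference of 0.15 (all genes −0.04, the day 8 sets 0.05), and 9 of 16 exceeded their day 8 difference against 64.4% of all genes. The list summed to 98554 CPM on day 12 and 92535 on day 14, between 36666 and 45334 on day 8 and 102499 on day 0.

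Elane, neutrophil elastase (chromosome 10, 79886247 to 79888215, mm10), stood at 20726, 2922, 3369, 12515, 18177 and 22488 CPM over the 6 sets. The last 2 days were both near day 0 and far above day 8, and the log2 difference between them was 0.31 (SE 0.34). Mpo, myeloperoxidase, was at 59192, 23850.1, 15780.1, 50806, 56814 and 42641 CPM, a difference of −0.41 (SE 0.49) that was smaller than the −0.60 between the day 8 sets. Prtn3, proteinase 3, was at 5843 CPM on day 12 and 8117 on day 14, the highest of the 6 sets (0.47, SE 0.29). Ctsg, cathepsin G, was at 11221 and 12840.1 CPM (0.19, SE 0.31).

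All 4 of these genes were read in every kept cell of both days, and the cells of a day spread far more than the days did. Elane ran from 22.6 to 65571 CPM per cell on day 12 (median 13859) and from 122 to 61054 on day 14 (median 16176). Per-cell Mpo had a median of 56295 CPM on day 12 and 34782 on day 14, with quartiles at 39067 and 68668 on the first and at 16701 and 52422 on the second. The 2 quartile ranges overlapped in part. Cells of a set are not replicates, so no test was made between them.

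Regulators of the granulocyte path were close as well. Gfi1, a repressor that favours granulocytes, stood at 53.1 and 56.8 CPM on days 12 and 14, and Cebpa, a master factor of myeloid commitment, at 84.4 and 77.8. Csf3r, the G-CSF receptor, was at 84.1 and 82.0. Cebpe, which drives the step to secondary granules, was at 46.1, 11.6, 12.9, 30.7, 45.5 and 25.2 CPM. Its difference of −0.85 (SE 0.31) was larger than that of the day 8 sets (0.14) and did not pass the test. It was −0.39 with neither a filter on cells nor thinning. After Slc34a2 was removed and each cell thinned to 30000 other reads, Cebpe was read in 41.2% of 80 cells on day 12 (exact 95% interval 30.4 to 52.8) and 33.3% of 36 on day 14 (18.6 to 51), intervals that overlap.

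Late neutrophil genes were low on both days apart from S100a8 on day 12. Of 14 members 5 were tested, 1 past 2-fold upward and 1 downward, and Camp and Mmp9 had 0 reads on both. The upward one was Mmp8, neutrophil collagenase, with a difference of 2.21 (1.04 to 2.76 over the 15 alternatives). At 30000 reads without Slc34a2 it was read in 13.8% of 80 cells on day 12 (7.07 to 23.3) and 27.8% of 36 on day 14 (14.2 to 45.2), intervals that overlap. Lcn2, lipocalin of the secondary granules, stood at 21.3, 109, 108, 153, 28.3 and 42.0 CPM, so both late days were low. S100a8, the alarmin subunit calgranulin A (chromosome 3, 90668978 to 90670035), was at 122, 42.8, 413, 195, 432 and 32.2 CPM. Its difference of −3.74 (SE 1.99) stood against 3.25 between the day 8 sets, and it was −1.32 to −4.32 over the 15 alternatives. On day 12, 91.3% of its reads came from 5 cells, and 59 of 85 cells had none. Its partner S100a9 had 49 reads on day 12 and 1 on day 14.

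Monocyte genes were also at like levels. None of 15 tested members of 18 passed the test, 1 was past 2-fold upward (12.1% of all genes were) and 0 downward, and 6 lay above 0 and 9 below. The median was −0.07, against −0.79 between the day 8 sets, and 4 of 15 exceeded their day 8 difference (64.4% of all genes). The list summed to 8180 CPM on day 12 and 8758 on day 14, near the 8996 of day 0, with 2130.0 and 1206 on day 8 and 3479 on day 10.

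Ly6c2, a surface marker of monocyte precursors, accounted for most of that sum. It stood at 5901, 818, 338, 1673, 5278 and 5823 CPM (0.14, SE 0.74). It was read in 85 of 85 cells on day 12 and 43 of 47 on day 14. At 30000 reads without Slc34a2 these shares were 98.8% (93.2 to 100) and 97.2% (85.5 to 99.9). Irf8, the transcription factor of the monocyte and dendritic path, was at 593, 209.7, 120.4, 276, 518 and 539.5 CPM, so days 12 and 14 were the closest neighbours in the order of its levels. Csf1r, the M-CSF receptor, was at 156 and 149.9 CPM, with 165 on day 0 and 32.1 and 41.2 on day 8.

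A few monocyte genes differed more. Lyz2, lysozyme, was at 672, 243, 217, 409.8, 526 and 839 CPM, with day 14 the highest set (0.68, SE 0.23). Cx3cr1, the fractalkine receptor, was at 9.95 and 24.5 CPM (1.30, SE 0.40, from 33 and 35 reads). Psap, prosaposin of the lysosome, was at 392 and 259 CPM (−0.60, SE 0.27). None of the 3 passed the test.

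Both lineage regulators were read together in a like share of cells. Irf8 and Gfi1 were both read in 24 of 85 cells on day 12 (28.2%, exact 95% interval 19 to 39) and 13 of 47 on day 14 (27.7%, 15.6 to 42.6). Irf8 alone was read in 52.9% and 46.8%, Gfi1 alone in 9.41% and 10.6%, and neither in 9.41% and 14.9%. On day 8 Irf8 alone was read in 40% and 26.9% of cells and Gfi1 alone in 18.9% and 21.5%. A read or its absence at this depth does not show that a cell expresses or lacks a gene, and PCR copies were not removed, so these intervals cover counting error only. Thinning included Slc34a2, so other genes had fewer reads per cell on day 14, with a median of 4702 genes against 5146. At 30000 reads without Slc34a2, Irf8 was read in 72.5% of 80 cells on day 12 and 77.8% of 36 on day 14. Gfi1 was read in 38.8% and 50% of those cells, and the joint share was not computed.

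**Figure D3:**
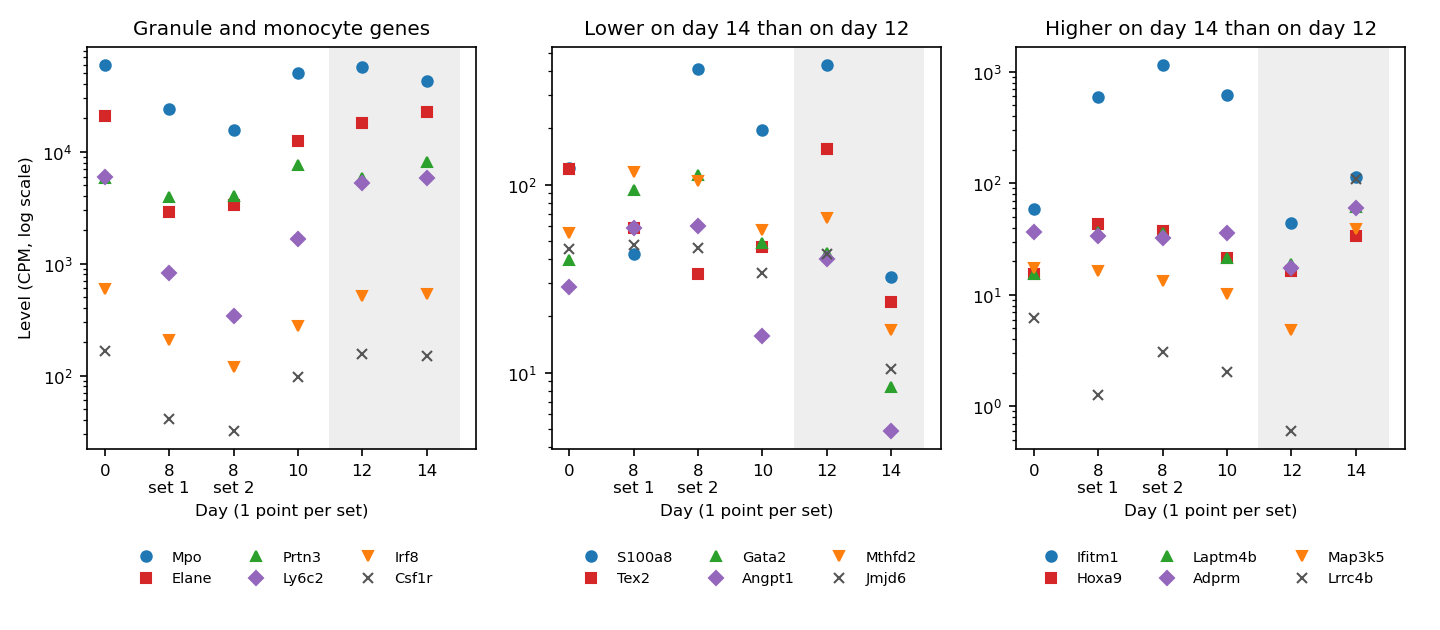
Each point is the level of 1 gene in 1 summed set (CPM, log axis) on days 0, 8 (2 sets), 10, 12 and 14, with days 12 and 14 shaded; the panels hold granule and monocyte genes, genes named as lower and genes named as higher on day 14. Elane, Ly6c2 and Irf8 are level across the shaded days, while Tex2, Gata2, Mthfd2 and Jmjd6 are at their lowest on day 14.

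The sort markers were near each other on both days. Kit, the stem cell factor receptor, was at 100.4 and 134 CPM (0.41, SE 0.22), Fcgr3, the Fcγ receptor of the gate, at 338 and 406 (0.26, SE 0.20), and Cd34 at 525 and 425 (−0.31, SE 0.23). Ly6a, which encodes Sca-1 and is excluded by the gate, was at 7.54 and 14.7 CPM. Of 10 lineage markers, Cd3d, Cd3e and Cd8a had 0 reads on both days. Cd3g and Cd4 lay at 3.92 and 1.21 CPM on day 12 and 14.7 and 6.31 on day 14, from 21 reads or fewer.

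Many markers of other cell types were low or at 0 on both days, but some were read in many cells. Of 9 erythroid genes outside X and Y, Car2 alone was tested (12.4 and 8.41 CPM, against 129 and 197 on day 8), and 7 had 0 reads on both days, among them Klf1 and Epor. Prg2, the major basic protein of eosinophils, had no read on day 12 (0 of 85 cells, a limit of 3.53%) or day 14 (0 of 47 cells, a limit of 6.38%), against 956 CPM on day 0 and 526 in the second day 8 set. Basophil and mast cell genes summed to 454 CPM on day 12 and 384 on day 14. Prss34, a basophil protease, had 108 reads from 2 cells on day 12 and 0 on day 14, at least 15.5-fold lower against a floor of 3 reads in the set. Cd79a, Rag1, Dntt and Il7r of B cells and early lymphocytes, Pf4 of megakaryocytes and C1qa and C1qb of macrophages had 0 reads on both days. Other members were read. Ebf1 and Cd79b of the lymphoid list had differences of 1.89 and −0.04, and Vcam1 of macrophages 0.34. At 30000 reads Ebf1 was read in 21.2% of 80 day 12 cells (12.9 to 31.8). On day 14 the share was 47.2% of 36 (30.4 to 64.5), and the intervals overlap. Both tested megakaryocyte genes were past 2-fold upward, Vwf (1.31) and Itga2b (1.12). That list summed to 23.8 CPM on day 12 and 50.4 on day 14, with 31.1 and 76.2 on day 8. None passed the test. The lists of stroma and endothelium and of T and NK cells summed to 168 and 1139 CPM on day 12 and 199.7 and 1382 on day 14, the second almost all Nkg7, a granule protein gene at 1134 and 1367 CPM that lay at 719 to 1433 in the other sets.

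Genes of stem cells and multipotent progenitors lay on both sides of 0. Of 22 members 19 were tested, and 9 were past 2-fold upward and 3 downward (background 12.1% and 7.97%), none of them called. The list had a median of 0.55, the highest of any list with at least 10 tested members, against 0.11 between the day 8 sets, and 16 of 19 exceeded their day 8 difference. The members past 2-fold in either direction had 44.6 CPM or less on day 12. Among them Meis1 also had a positive relation to the Slc34a2 share per cell in the other sets (mean Spearman rho 0.39). The part of that share in its value was not tested.

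Ifitm1, an interferon-induced membrane protein gene that marked day 8, was at 59.3, 593, 1143, 622, 44.3 and 114 CPM. Day 14 was thus above days 0 and 12 and far below days 8 and 10, with a difference of 1.36 (SE 0.63) and 0.95 between the day 8 sets. Ifitm1 was read in 25% of 80 cells on day 12 (16 to 35.9) and 63.9% of 36 on day 14 (46.2 to 79.2) at 30000 reads, intervals that do not overlap but cover cells of 1 set each. It was called higher in 4 of the 15 alternative settings.

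The homeobox genes Hoxa9, Hoxa7 and Hoxa5, regulators of progenitor self-renewal, stood at 16.3, 14.2 and 9.05 CPM on day 12 and 33.6, 36.4 and 18.9 on day 14. Hoxa9 had a difference of 1.04 (SE 0.33) from 54 and 48 reads, but 0.04 when Slc34a2 was removed before thinning. Meis1, a partner of Hox proteins, was at 44.6 and 103.7 CPM, and Msi2, an RNA-binding protein of stem cells, at 9.95 and 32.9.

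The members that lay lower included 2 of the largest downward differences of all genes named. Gata2, a transcription factor of stem cells and of the mast cell and basophil path (chromosome 6, 88193891 to 88207032), was at 39.6, 93.9, 113, 49.1, 43.1 and 8.41 CPM. Day 14 was the lowest of the 6 sets, and the difference was −2.35 (SE 0.38), against 0.26 between the day 8 sets. It was read in 27.5% of 80 cells (18.1 to 38.6) and 8.33% of 36 (1.75 to 22.5), and 67.1% of its day 12 reads came from 5 cells. Angpt1, the ligand of the Tie2 receptor, was at 28.6, 58.4, 60.2, 15.6, 40.4 and 4.90 CPM, a difference of −3.03 (SE 0.37) from 134 and 7 reads, with 50.7% of its day 12 reads in 5 cells. It was −1.23 in cells with 50000 to 150000 reads and −4.27 with neither a filter on cells nor thinning. Hlf, a stem cell transcription factor, had 36 reads on day 12 and 3 on day 14, a ratio of 0.194 (95% counting interval 0.0381 to 0.613).

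**Figure D4:**
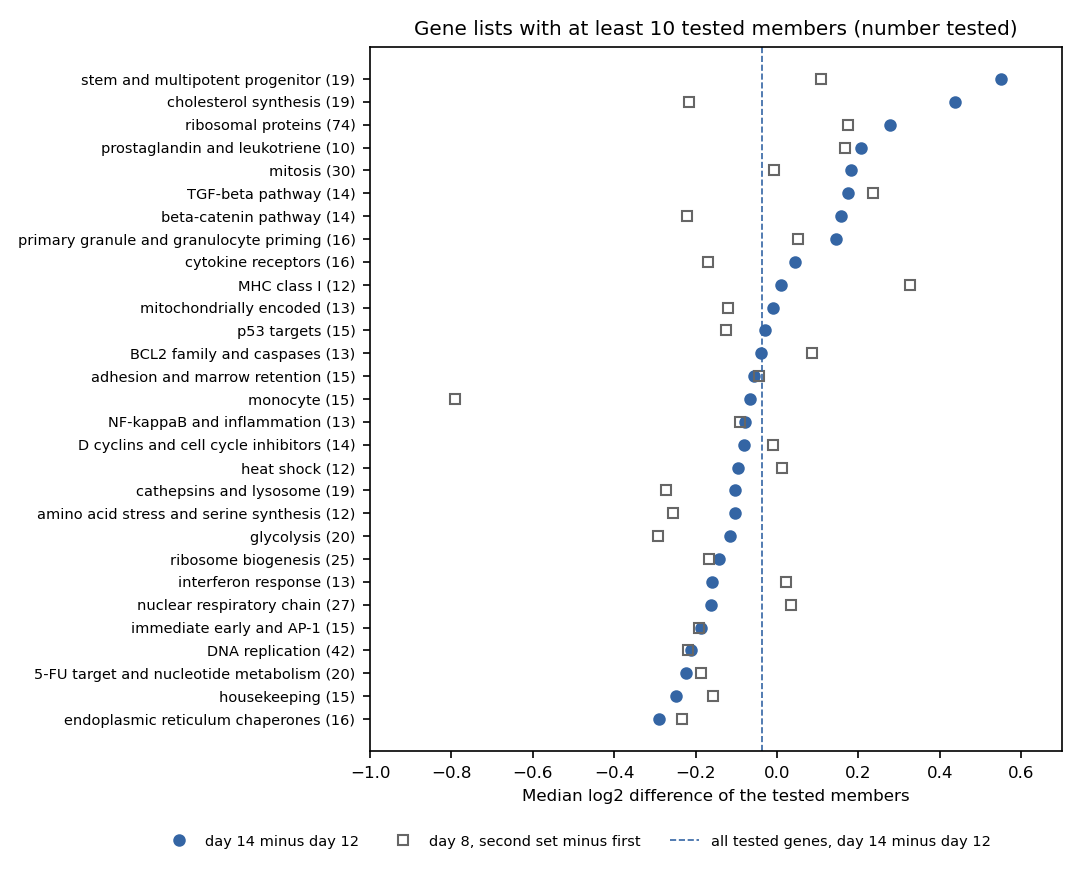
Filled points give the median log2 difference, day 14 minus day 12, of the tested members of each gene list with at least 10 (number in brackets), open squares the same between the day 8 sets, and the dashed line the median of all tested genes. Medians of day 14 minus day 12 run from −0.29 for endoplasmic reticulum chaperones to 0.55 for stem and multipotent progenitor genes.

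Cell cycle genes differed little in the summed sets. Of 42 DNA replication genes 0 were past 2-fold and 33 lay below 0 (52.2% of all genes did), with a median of −0.21, next to −0.22 between the day 8 sets. Of 15 housekeeping genes 13 lay below 0, with a median of −0.25. Mcm6, a subunit of the replicative helicase, stood at 692 and 586 CPM, and Pcna, the sliding clamp, at 124 and 114. Of 30 mitosis genes 20 lay above 0 and 1, Kif2c, was past 2-fold upward, with a median of 0.18 (day 8 sets −0.01). Mki67, the Ki-67 proliferation antigen, was at 139.6 and 160.5 CPM (0.20, SE 0.21), and Ube2c, a ubiquitin-conjugating enzyme of mitotic exit, at 155 and 241 (0.64, SE 0.39). Per cell the medians went the other way, for Mki67 68.5 CPM on day 12 and 24.7 on day 14. Of its reads 26.3% and 50.2% came from 5 cells. These 2 shares cannot be compared directly, because 5 cells are a larger part of 47 cells than of 85. The mitosis list took a median of 0.179% and 0.124% of reads per cell. Thinning included Slc34a2, so other genes had fewer reads per cell on day 14. Mki67 had no read in 25 of 85 cells on day 12 and 22 of 47 on day 14. The part of this depth in the per-cell medians was not tested. The median log2 differences of the replication and mitosis lists each changed sign in 1 of the 15 alternatives.

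Ribosomal protein and ribosome biogenesis genes had medians near those between the day 8 sets. Of 74 tested ribosomal protein genes 57 lay above 0 and 17 below (52.2% of all genes lay below), and 7 were past 2-fold upward (12.1% of all genes were), with a median of 0.28 and 0.18 between the day 8 sets. Rps28 was the farthest, at 27.1 CPM on day 12 and 339.8 on day 14. Its share per cell was also positively related to that of Slc34a2 in other sets (mean rho 0.36). Rpl4, the highest of the list, stood at 3876 and 3577 CPM and Rps3 at 1973 and 2172. Ribosomal protein genes have many processed pseudogenes, so the counting could split their reads. Genes of ribosome biogenesis had a median of −0.14 (day 8 sets −0.17), with 18 of 25 below 0 and 2 past 2-fold downward. Among them Gnl3, nucleostemin, was at 306 and 185 CPM (−0.73, SE 0.23) and Pes1, a factor of large-subunit processing, at 70 and 32.9 (−1.09, SE 0.27).

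Folate and nucleotide genes, the pathway that 5-FU blocks, lay below 0 in 17 of 20 tested members. So did 52.2% of all genes and 13 of 15 housekeeping genes. In the list 2 were past 2-fold downward and 1 upward (7.97% and 12.1% of all genes), with a median of −0.22 (day 8 sets −0.19). Mthfd2, the mitochondrial folate enzyme that supplies 1-carbon units (chromosome 6, 83305691 to 83325908), stood at 55, 117, 105, 57.6, 66.7 and 16.8 CPM. Day 14 was the lowest set (−1.98, SE 0.29, day 8 sets −0.16), with the gene read in 50% of 80 cells (38.6 to 61.4) and 22.2% of 36 (10.1 to 39.2). Dctd, deoxycytidylate deaminase, was at 90.2 and 47.6 CPM (−0.92, SE 0.24). Rrm2b, the p53-inducible ribonucleotide reductase subunit, had 58 reads on day 12 and 1 on day 14, a ratio of 0.0401 (0.000997 to 0.232). Rrm2, the subunit of dividing cells, was at 306 and 262 CPM.

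Among p53 targets 3 of 15 were past 2-fold upward and 4 downward (12.1% and 7.97% of all genes), with a median of −0.03 that changed sign in 4 of the 15 alternatives. Sesn1, sestrin 1, lay lower (44 and 13.3 CPM, −1.72, SE 0.32), while Bax and Mdm2 were close, at 61.5 and 44.9 CPM on day 12 and 79.2 and 54.7 on day 14. In the amino acid stress list 0 of 12 were past 2-fold, and its driver Atf4 stood at 219 and 113 CPM (−0.96, SE 0.30). Endoplasmic reticulum chaperones lay below 0 in 14 of 16 (52.2% of all genes and 13 of 15 housekeeping genes did), none past 2-fold. Their median was −0.29 (day 8 sets −0.23, housekeeping genes −0.25). Pdia3 was at 1411 and 924 CPM and Calr, calreticulin, at 2372 and 1839.

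Of 15 tested immediate early genes 2 were past 2-fold upward and 1 downward (12.1% and 7.97% of all genes). Above 0 lay 6 and below it 9, with a median of −0.19, as between the day 8 sets. Fos stood at 213 and 187 CPM and Jun at 122 and 68.7 (−0.83, SE 0.24), while Btg2 had an upward difference of 1.19. Fosb had 37 reads on day 12 and 0 on day 14, at least 5.31-fold lower. Cholesterol synthesis had 4 of 19 past 2-fold upward and 0 downward (12.1% and 7.97% of all genes), with a median of 0.44 (0.05 to 0.57 over the alternatives, day 8 sets −0.22) with every tested member at 45.5 CPM or less on day 12. Examples were Pmvk, phosphomevalonate kinase (14.5 and 37.8 CPM), and Insig1, a sterol sensor (6.64 and 16.8).

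Glycolysis, the respiratory chain, the mitochondrial genes, MHC class I, cytokine receptors and adhesion genes had medians between −0.16 and 0.04, and 0 to 2 members of each were past 2-fold. Among these, Ldha was at 1530 and 1319 CPM, mt-Co1 at 9968 and 8276, B2m at 4409 and 5137 and Ifngr1 at 833 and 608.

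The 12 largest upward differences among genes with at least 32 CPM, a read in at least 20% of cells and a difference larger than that of the day 8 sets were Lrrc4b, Caln1, Gm27013, Gm20655, Gm37600, Dmxl2, Trps1, Gm43859, Cdk14, Hes1, Tbata and Fam120b. Their differences ran from 3.92 to 7.43, and none passed the test. Gm27013 is a processed pseudogene, Gm37600 and Gm43859 are loci of uncertain status in the annotation, and Gm20655 is antisense, whose reads cannot be told from those of the other strand because the libraries do not mark strand.

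Dmxl2, a gene of vesicle acidification, stood at 124, 34.4, 97.9, 45.6, 49.5 and 1183 CPM. Fam120b, a nuclear receptor coactivator gene, was at 244, 99.7, 261, 152, 146 and 2212 CPM, and Tbata, a gene of the testis and thymus, at 361, 66.8, 206, 108, 109 and 1735. In all 3 the day 14 set stood far above the other 5. Lrrc4b, a synaptic adhesion gene (chromosome 7, 44429018 to 44463351), had 2 reads on day 12 and 157 on day 14, a ratio of 182 (95% counting interval 49.7 to 1519), and was read in 43 of 47 day 14 cells. Caln1, a neuronal calcium-binding protein gene, had 2 and 63 reads, a ratio of 73.2 (19.4 to 618).

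Hes1, a transcriptional repressor and target of Notch (chromosome 16, 30064384 to 30067796), was at 7.55, 9.11, 8.10, 3.58, 2.71 and 46.9 CPM. Its difference of 4.09 (SE 0.47) stood against −0.16 between the day 8 sets, and it was read in 5.00% of 80 cells (1.38 to 12.3) and 61.1% of 36 (43.5 to 76.9).

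In their relation to the Slc34a2 share these loci ranged from weak to strong. In the 368 cells of the day 0, 8 and 10 sets, the share of reads of all 12 had a positive mean Spearman rho with that of Slc34a2 (0.10 to 0.78, median 0.26), and 5 of the 12 had one over 0.3, given as a description since both are shares of the same cell's reads. Of all tested genes 125 had a mean rho of at least 0.5. Of these, 71 were past 2-fold upward on day 14 and 0 downward, against 1237 and 864 of the 10722 other tested genes. Between the day 8 sets 23 of the 125 were past 2-fold higher in the second. Together the 125 summed to 1.93% of reads on day 12 and 4.93% on day 14, against 1.04% to 2.17% in the other sets. Among the 74 upward genes of the highest level group, 54 had a mean rho of at least 0.3. Of the 22 genes of that group higher in the second day 8 set, 18 did, so the relation was not particular to day 14. Of the 10722 tested genes with a mean rho under 0.5, 287 reached 0.3. In the 49 day 14 cells left out, summed without thinning, Lrrc4b stood at 386 CPM against 76.3 in kept cells, Dmxl2 at 4199 against 819 and Hes1 at 179.6 against 33.8. In the 10 left-out day 12 cells Dmxl2 was at 307 CPM against 34.3. The part of the Slc34a2 share in these differences was not tested. In the 79 day 12 and 36 day 14 cells with at least 4000 genes, the differences of Lrrc4b, Dmxl2 and Hes1 were 6.69, 4.51 and 3.76.

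**Figure D5:**
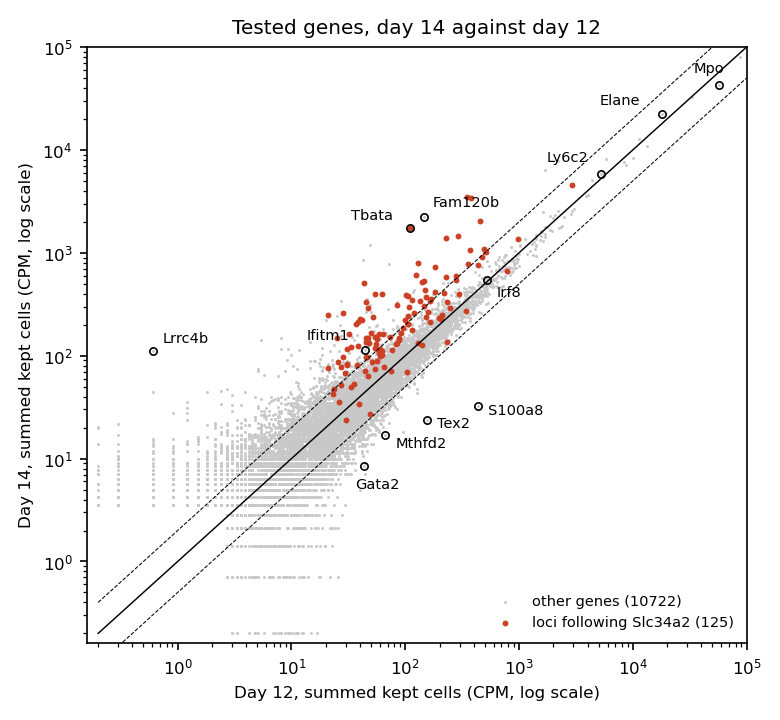
Each point is a tested gene with its level on day 12 (x axis) and day 14 (y axis), in CPM on log axes, with values under 0.2 drawn at 0.2; the solid line marks equal levels and the dashed lines 2-fold. Of the 125 loci that follow the Slc34a2 share with a mean rho of at least 0.5 (red), 71 lie past 2-fold upward, against 1237 of the 10722 others. Circles mark genes named in the text.

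The largest upward differences without such a relation, in genes with a mean rho under 0, were chosen after values were seen. They were Map3k5, Ccdc91, Mtmr4, Mmd, Cenpv, Aspm, Adprm, Kpna2, Laptm4b, Fancd2, Atg16l1 and Pank4, with differences from 1.69 to 3.01. None passed the test. With neither a filter on cells nor thinning, Cenpv was at 0.43, Fancd2 at 0.86, Pank4 at 0.83 and Laptm4b at 1.13. Which of the 2 changes moved them was not tested. Map3k5 lay between 1.88 and 3.62 over the alternatives. Map3k5, the stress kinase ASK1 (chromosome 10, 19934472 to 20142753), stood at 17.2, 16.2, 13.4, 10.2, 4.83 and 39.2 CPM (3.01, SE 0.43). It was read in 10.0% of 80 cells (4.42 to 18.8) and 30.6% of 36 (16.3 to 48.1), intervals that overlap. Laptm4b, a lysosomal membrane protein gene, was at 15.4, 36.2, 35.9, 21.2, 18.7 and 61 CPM (1.70, SE 0.29), read in 16.2% (8.95 to 26.2) and 44.4% (27.9 to 61.9) of those cells. Aspm, a spindle protein, Kpna2, an importin of dividing cells, and Fancd2, of the Fanconi DNA repair pathway, were at 10.9, 9.95 and 10.6 CPM on day 12 and 37.1, 32.9 and 34.3 on day 14. In the left-out day 14 cells Map3k5 was at 39.2 CPM, above the 21.3 of the kept ones. The other 11 were lower there than in kept cells, from Mmd at 0 against 38.6 to Fancd2 at 20.6 against 29.6.

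The 12 largest downward differences under the same conditions were S100a8, Angpt1, Tex2, B3gnt8, Apoe, Gata2, Sec23a, Pafah2, Jak2, Mapk8ip3, Jmjd6 and Mthfd2, from −1.98 to −3.74. All 12 stayed below 0 under the 15 alternatives, with the widest ranges in S100a8, Angpt1, Jmjd6 (−1.11 to −3.56) and Sec23a (−1.07 to −3.45), and Mthfd2 lay between −1.14 and −2.11. Their mean rho ran from −0.23 to 0.29, and together they summed to 0.107% of reads on day 12 and 0.0153% on day 14. Tex2, a lipid-binding protein gene of the endoplasmic reticulum (chromosome 11, 106502147 to 106613423), stood at 121, 58.9, 33.6, 46.8, 155 and 23.8 CPM. Day 12 was the highest and day 14 the lowest set, a difference of −2.70 (SE 0.56). The gene was spread over cells, read in 80% of 80 on day 12 (69.6 to 88.1) and 41.7% of 36 on day 14 (25.5 to 59.2), intervals that do not overlap.

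Jmjd6, a lysyl hydroxylase of splicing factors, was at 45.3, 47.8, 46.3, 34, 42.5 and 10.5 CPM, so 5 sets lay between 34 and 47.8 and day 14 below them (−2.01, SE 0.32). It was read in 47.5% of 80 cells (36.2 to 59) and 13.9% of 36 (4.67 to 29.5). B3gnt8, a glycosyltransferase gene, was at 44.2, 18.5, 12.1, 26.4, 44.3 and 7.01 CPM (−2.66, SE 0.55). Sec23a, a coat protein of vesicles leaving the endoplasmic reticulum, was at 44.6 and 9.11, with 24.1 to 34.9 in the other sets. Jak2, the kinase behind many cytokine receptors, was at 35.9 and 7.71, with 18.1 to 32.6 elsewhere.

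Apoe, apolipoprotein E, was at 158, 70.8, 118, 118, 95.3 and 18.2 CPM (−2.38, SE 0.57), and 78.8% of its day 12 reads came from 5 cells. Under all 5 alternative edgeR settings that made calls, 4 genes were lower on day 14: S100a8, Tex2, Apoe and Gata2. These settings reuse the same sets, so they are not separate support. Their prior degrees of freedom ran from 18.9 to infinite, so a gene's own day 8 spread counted little or not at all. S100a8 was called there although its levels also lay far apart between the day 8 sets. Under the same 5 settings 70 genes were higher, and all 70 had a positive mean rho with Slc34a2 (0.12 to 0.84, median 0.41). Of the 1308 genes at least 2-fold higher 981 had a positive one, and of the 10722 tested genes with a mean rho under 0.5, 3632.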

How the data were processed

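The authors deposited raw read counts, whole numbers for each gene of each cell, and these were used as they stand. Per the submitters' processing notes, reads were aligned with GSNAP to mm10 and counted with HTSeq. Gene coordinates are those of the mm10 annotation. The members and gene lists were chosen with earlier results of these data known. Of 574 labelled cells, 573 columns were used and 1 column was not used. The 5 rows naming no gene, a median of 91.7% of reads on day 12 and 93.7% on day 14, and 92 spike-ins stayed out of library sizes. Kept cells were thinned to 50000 reads and summed per set without Slc34a2. Genes outside X and Y that passed edgeR's expression filter and had a read in 10% or more of the kept cells of either day were tested, 10847 in all.

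The test was edgeR 4.0.16 quasi-likelihood with TMM scaling on all 6 sets, in R 4.3.3, with Benjamini-Hochberg adjustment and a threshold of 0.05. limma 3.58.1 (voom) and DESeq2 1.42.0 were alternatives. With 1 residual degree of freedom and 2.27 prior ones, p-values measure only the spread between the day 8 sets, which may be technical. The procedure was tested on simulated data. Genes were named by a fixed rule: the 12 largest differences each way, called genes first and then filled by size, under the conditions given in the text, up to 4 of the most abundant members of each described list and a short list of regulators and markers. Exceptions are named in the text. Likeness to Slc34a2 was the mean of the Spearman correlations in the day 0, 8, 8 and 10 sets. Shares of cells carry exact Clopper-Pearson 95% intervals, and ratios of few reads exact counting intervals. Both cover counting error only, since PCR copies were not removed. A count of 0 was read against 3 reads, 0.905 CPM on day 12 and 2.10 CPM on day 14. Alternatives were another scaling, filter, thinning, set of cells or sets, and 2 chosen after seeing the data (cells with at least 4000 genes, and loci following Slc34a2 left out). Some items are not reported here.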

Additional observations from a re-analysis of the deposited data

Results flagged for a closer look

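The 49 day 14 cells left out for their depth carried signal outside the comparison. Their median share of reads on Slc34a2 was 78.3%, against 31.2% in the kept day 14 cells and 71.4% in the 10 left-out day 12 cells. Lrrc4b stood at 386 CPM in the left-out day 14 cells, summed without thinning, against 76.3 in the kept ones, and had no read in the left-out day 12 cells. Foxl1, a forkhead factor gene of the gut mesenchyme, stood at 13592 CPM in the left-out day 14 cells, against 2519 in the kept ones, 2963 in the left-out day 12 cells and 240.0 in the kept day 12 cells.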

How the results depend on the processing

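The absence of calls did not hold under every alternative. The counts of genes called higher and lower on day 14 were 309 and 170 without thinning, 148 and 73 with Slc34a2 removed before thinning to 30000 reads, 426 and 119 with no filter on cells beyond 1000 reads, 173 and 124 in cells with at least 70000 reads and 2000 genes, 76 and 23 in cells with 50000 to 150000 reads, and 35 and 2 by DESeq2. The setting with no filter on cells was also not thinned. edgeR estimated the prior degrees of freedom at 75.3 without thinning and 18.9 with no filter on cells, against 2.27. They were infinite in the other 3 edgeR settings with calls. At such values a gene's own day 8 spread counts little or not at all. The other alternatives, limma voom, DESeq2 size factors, a second thinning, Slc34a2 kept, no filter on genes, the first 47 cells of each set, days 8, 12 and 14 alone, and both added ones, gave 0 and 0. Genes past 2-fold numbered 2172 between the days and 746 between the day 8 sets. With no filter on genes these were 7668 and 2825 of 26808 genes, and with cells of 50000 to 150000 reads 2683 and 2180. The other settings gave 2009 to 2358 and 690.0 to 1066. Of values of named genes over all settings, 2529 stayed on their side of the threshold without a large move, 148 passed it under an alternative, 215 moved and 1 turned over. The 1 that turned over was Cpa3, a mast cell protease gene, at 0.63 and at −1.70 in cells with at least 70000 reads and 2000 genes. The sign was opposite in 155 of all these values, spread over many genes. Of list medians, 624 shifted by less than 0.41, the SD of the day 8 list medians, and 21 moved farther. That width exceeds most of the list medians themselves, so a median could change sign and still count among the 624. The median of the mitochondrially encoded genes changed sign in 10 of the 15 alternatives and that of MHC class I in 5. No paired analysis was possible because each of days 12 and 14 is 1 set, and leaving out a day 8 set leaves no residual degree of freedom. Depth limits genes near 2.10 CPM on day 14. The cause of these differences was not tested.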

Other observations

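Several gene groups outside the comparisons above lay close on both days. The MHC class I list summed to 7719 CPM on day 12 and 8453 on day 14, with 4362 and 5895 on day 8. The interferon response list had 13 of 28 members tested, 1 past 2-fold in each direction, and summed to 1127 and 1067 CPM. Cathepsin and lysosome genes had a median of −0.10, with 6 of 19 beyond their day 8 difference, and the BCL2 family and caspases a median of −0.04.

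Other lists held more members past 2-fold, to be read against 12.1% upward and 7.97% downward of all genes. The prostaglandin and leukotriene list had 2 of 10 past 2-fold upward and 1 downward, the TGF-beta list 2 and 1 of 14, the beta-catenin list 3 and 3 of 14, the NF-kappaB list 2 and 2 of 13, and the cell cycle inhibitor list 1 and 2 of 14. Nothing in these lists passed the edgeR test. The medians of the beta-catenin and interferon lists changed sign in 4 and 5 of the 15 alternatives.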
